A study of Mus musculus with 26 samples.

Results

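The data described here are the 8 organoid libraries whose sample titles name Malat1 ASO2 or the control oligonucleotide scASO, with 4 libraries of each, out of 26 libraries in the study. An antisense oligonucleotide (ASO) is a short modified strand that pairs with an RNA and can lead RNase H to cut it. The organoids were fragments of mammary tumors from MMTV-PyMT mice of the C57BL/6 strain, embedded in Matrigel with FGF2 in the medium. In this transgene the MMTV promoter, which is active in mammary epithelium, drives the polyoma middle T antigen, and all organoid groups carry it. ASO2 or scASO was present at 500 nM for 6 days, with fresh oligonucleotide after 3 days. The study also holds 4 organoid libraries with ASO1, a different oligonucleotide against Malat1 given at the same dose and time, and 4 Mock libraries, for which no oligonucleotide is named. The other 10 libraries came from tumors and were not used here. The labels give the organoids no age, and they do not say whether replicates were separate cultures or came from separate tumors. The p-values below therefore measure how far these libraries scatter, a scatter that may be technical.

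Malat1 is a long noncoding RNA that is retained in the nucleus, where it collects at nuclear speckles beside pre-mRNA splicing factors. It is abundant in most tissues and is transcribed from a locus next to Neat1, the noncoding RNA that builds paraspeckles. PyMT tumors arise from luminal mammary epithelium, and the series title speaks of tumor differentiation and reduced metastasis. The comparison of ASO2 with scASO asks which genes of the organoids respond to lowering Malat1 rather than to an oligonucleotide as such.

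Gene counts summed to 36.13 to 65.15 M reads in the ASO2 libraries and to 23.97 to 39.04 M in those with scASO. Levels are given as CPM (read counts of a gene scaled to the size of the library), which allow a gene to be compared between libraries but not with another gene. Luminal markers were present in all 8 libraries: Krt8 lay between 849 and 1984 CPM and Epcam between 1174 and 2552 CPM. The basal marker Krt14 lay between 1063 and 3435 CPM. The T cell marker Cd3e did not exceed 0.0287 CPM and the adipocyte marker Adipoq did not exceed 0.122 CPM, so that these markers had almost no reads. Summed over their lists, fibroblast and pericyte genes came to 323 to 758 CPM and macrophage and leukocyte genes to 234 to 510 CPM. Endothelial genes came to 45.1 to 189 CPM, adipocyte genes to 76.3 to 180 CPM and skeletal muscle genes to 19.8 to 57.3 CPM. Cd14, whose values are given below, made up a large part of the macrophage and leukocyte sum, while Ptprc and Itgax added little to it. These sums do not measure cell numbers.

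Malat1 (ENSMUSG00000092341, chromosome 19, 5795690 to 5802672, minus strand of GRCm38, a long noncoding RNA gene) was read first, because it checks the labels. The libraries labelled ASO2 held 1342, 198, 88.6 and 287 CPM in replicates 1 to 4. The libraries labelled scASO held 762, 106, 730 and 1129 CPM. Malat1 was thus high in the library labelled ASO2 replicate 1 and low in the library labelled scASO replicate 2, against their labels, and the groups overlapped. The ASO1 libraries held 169, 102, 80.3 and 117 CPM and the Mock libraries 694, 1446, 667 and 1261 CPM, with no overlap between them. As labelled, the mean was 479 ± 581 CPM (SD, n = 4) with ASO2 and 682 ± 424 CPM (SD, n = 4) with scASO. The difference of -0.83 on the log2 scale was within the spread between libraries (exact two-sided permutation test, p = 0.457, where the smallest possible p is 0.0286). This test did not pair the libraries by replicate number, so its spread holds the differences between numbers.

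Every result below is therefore given in 3 versions. The first keeps the labels. The second leaves out the library labelled ASO2 replicate 1 and the library labelled scASO replicate 2. The third enters the library labelled ASO2 replicate 1 as scASO of number 2, and the library labelled scASO replicate 2 as ASO2 of number 1. The third version is a supposed relabelling and not the deposited record. Because the 2 libraries were picked by their Malat1 level, Malat1 in the second and the third version is a description only. Without the 2 libraries, Malat1 was 191 ± 99.5 CPM (SD, n = 3) with ASO2 and 874 ± 222 CPM (SD, n = 3) with scASO. With them exchanged, it was 170 ± 91.7 CPM (SD, n = 4) against 991 ± 296 CPM (SD, n = 4). By the difference of the mean log2 levels, rather than the ratio of these means, 20% and 15.9% of the control level remained.

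Neat1, the neighbour of Malat1, held 577, 759, 881 and 1286 CPM with ASO2 and 905, 855, 728 and 1151 CPM with scASO, in the order of the replicates. The groups overlapped in all 3 versions. The log2 difference of the mean log2 levels was -0.10 as labelled, 0.06 without the 2 libraries and 0.19 with them exchanged (exact two-sided unpaired permutation tests, p = 0.743, 0.8 and 0.514). The other genes around Malat1 on chromosome 19 formed a list of 18 with Malat1 and Neat1. Among them edgeR, the test described below, called Malat1 alone, in the second and the third version. The list median was 0.048, 0.12 and 0.11 on the log2 scale in the 3 versions. Of the 18, 10, 15 and 16 were higher with ASO2, beside 50.7%, 49.3% and 50.9% of all genes. DESeq2, an alternative to edgeR, called 1, 0 and 2 of them higher, beside 2.23%, 0.0981% and 2.28% of all genes. With the 2 libraries exchanged, limma's voom called 5 higher and 1 lower, where it called 12.3% of all genes. Frmd8, a neighbour that codes for a FERM domain protein, held 59.8, 89.6, 105 and 98.5 CPM with ASO2 and 79.6, 88.5, 81.7 and 79.8 CPM with scASO. Its log2 fold change was 0.076 ± 0.13 (SE) as labelled, 0.33 ± 0.094 without the 2 libraries and 0.35 ± 0.077 with them exchanged, with adjusted p = 0.763, 0.442 and 0.109.

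**Figure D1:**
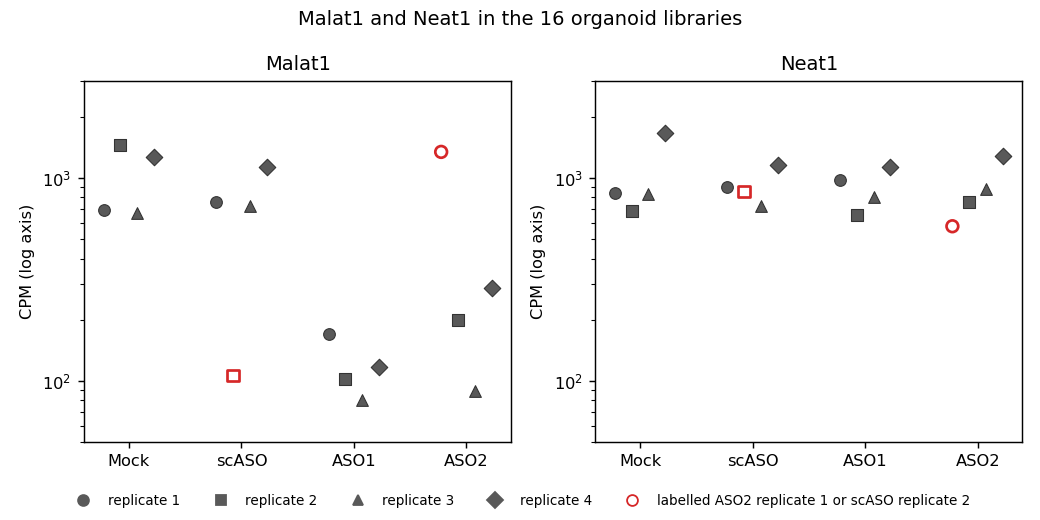
CPM of Malat1 and Neat1 on log axes, 1 point per organoid library, with the replicate number as the marker shape and the 2 libraries whose Malat1 goes against their labels in open red. The open circle sits at 1342 CPM of Malat1 among the control libraries and the open square at 106 CPM among the knockdown libraries, while Neat1 overlaps between groups.

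The 2 libraries also differed from their labels' numbers in genes other than Malat1. Replicate numbers 1 and 2 differ from each other in the ASO1 and the Mock libraries, which take no part in the comparison of ASO2 with scASO. There, 549 genes differed by at least 1 on the log2 scale in the same direction in both groups, 346 of them higher in number 2 and 203 higher in number 1. In the library labelled ASO2 replicate 1, 544 of the 549 genes lay nearer to number 2, as did 541 in the library of ASO2 replicate 2. In the library labelled scASO replicate 2, 29 of the 549 genes lay nearer to number 2, and in scASO replicate 1 the count was 7. As labelled, both ASO2 libraries of numbers 1 and 2 thus lay on the side of number 2, and both scASO libraries on the side of number 1. Car9, a carbonic anhydrase induced by low oxygen, shows the pattern. It held 91.1 and 84.8 CPM in number 1 of ASO1 and Mock, and 272 CPM in number 2 of each. It held 240 and 268 CPM in the libraries labelled ASO2 replicate 1 and 2, and 91.9 and 94.6 CPM in those labelled scASO replicate 1 and 2. How the libraries came to differ from their labels was not tested.

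**Figure D2:**
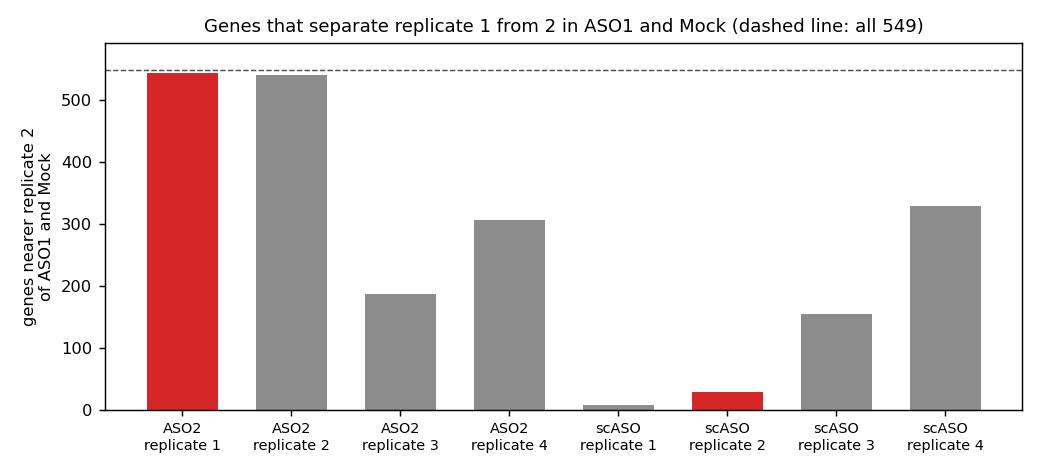
For each of the 8 libraries, the bar gives how many of the 549 genes that separate replicate 1 from replicate 2 in ASO1 and Mock lay nearer to replicate 2, with the 2 libraries whose Malat1 goes against their labels in red. The library labelled ASO2 replicate 1 reaches 544 and the library labelled scASO replicate 2 reaches 29.

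As labelled, no gene passed the test. edgeR's quasi-likelihood test with the replicate number as a block and Benjamini-Hochberg adjustment called 0 of 17126 genes (0%), with a smallest adjusted p of 0.0548 and 3544 genes at an unadjusted p under 0.05. DESeq2 with the same block called 535 genes (3.12%), 382 higher and 153 lower, and limma's voom with quality weights called 11 (0.0642%). The edgeR count was 0 to 2 when any 1 library other than ASO2 replicate 4 was left out, with Ptprc and Atg4c called without the library labelled ASO2 replicate 1, but it was 284 without ASO2 replicate 4. Without the block edgeR also called 0 genes, with 287 at an unadjusted p under 0.05.

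The lists of the cell cycle, low oxygen and interferon had medians far from 0 as labelled, and each of these medians moved toward 0 or past it in the other versions. Of 30 genes of the G1/S transition and DNA replication, 2 were higher with ASO2 as labelled, with a median log2 fold change of -0.53, beside 8691 of 17126 genes and a median of 0.0048 over all genes. Without the 2 libraries 18 of 30 were higher (median 0.061), and with them exchanged 22 of 30 (median 0.049). Of 29 genes of G2/M and mitosis, 0 were higher as labelled (median -0.56), 10 without the 2 libraries (-0.052) and 13 with them exchanged (-0.013). The same lists differed between number 2 and number 1 within ASO1 by medians of -1.08 and -1.25, and within Mock by -1.09 and -1.04. Mki67, the Ki-67 proliferation antigen, held 319, 257, 333 and 426 CPM with ASO2 and 715, 686, 465 and 362 CPM with scASO. It had a log2 fold change of -0.69 ± 0.30 as labelled, -0.10 ± 0.21 without the 2 libraries and -0.14 ± 0.17 with them exchanged, and none was called (adjusted p = 0.222, 0.902 and 0.679). Mcm2, a subunit of the replicative helicase, held 36.6, 47.1, 58.2 and 50.3 CPM with ASO2 and 76.3, 90.5, 51.1 and 39.5 CPM with scASO. The log2 fold change came to -0.37 ± 0.26 as labelled and 0.26 ± 0.082 and 0.28 ± 0.061 in the other versions (adjusted p = 0.414, 0.451 and 0.105). In the pairs of replicates 3 and 4, whose Malat1 followed their labels, the G1/S list had medians of 0.023 and 0.075 and the G2/M list medians of -0.13 and 0.12.

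Genes of hypoxia and glycolysis went the other way from the cell cycle. All 28 were higher with ASO2 as labelled, with a median of 0.56, while 21 of 28 were higher without the 2 libraries (median 0.10) and 22 of 28 with them exchanged (median 0.10). Number 2 exceeded number 1 in this list by medians of 1.04 in ASO1 and 0.97 in Mock. Aldoa, the glycolytic aldolase, held 1992, 2610, 4206 and 2818 CPM with ASO2 and 1276, 1365, 3185 and 2321 CPM with scASO, so that each ASO2 library exceeded the scASO library of its number. On the log2 scale it differed by 0.56 ± 0.12 as labelled, 0.35 ± 0.11 without the 2 libraries and 0.29 ± 0.083 with them exchanged. It was not called by edgeR (adjusted p = 0.104, 0.451 and 0.133), while DESeq2 called it in each version (adjusted p = 0.00108, 0.0496 and 0.00736).

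Of 30 type I interferon response genes, 24 were higher as labelled (median 0.36), 3 without the 2 libraries (-0.27) and 13 with them exchanged (-0.055). None was called by edgeR, and within ASO1 and Mock number 2 exceeded number 1 by medians of 1.60 and 1.64. The pairs whose Malat1 followed their labels differed from each other. In the pair of replicate 3, 15 of 30 were higher (median 0.042), and in that of replicate 4, 2 of 30 (median -0.69). Oas3, an antiviral enzyme that senses double-stranded RNA, held 13.1, 26, 11.9 and 3.94 CPM with ASO2 and 2.06, 4.1, 19.1 and 8.17 CPM with scASO. The ASO2 library was the higher of the pair in numbers 1 and 2 as labelled and the lower in numbers 3 and 4. Its log2 fold change was 0.67 ± 0.68, -0.75 ± 0.21 and -0.067 ± 0.34 in the 3 versions. Ifit2, an interferon-induced protein that binds viral RNA, was lower with ASO2 in each version, by log2 fold changes of -0.61 ± 0.27, -0.90 ± 0.27 and -0.62 ± 0.25, and was not called (adjusted p = 0.228, 0.442 and 0.234).

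**Figure D3:**
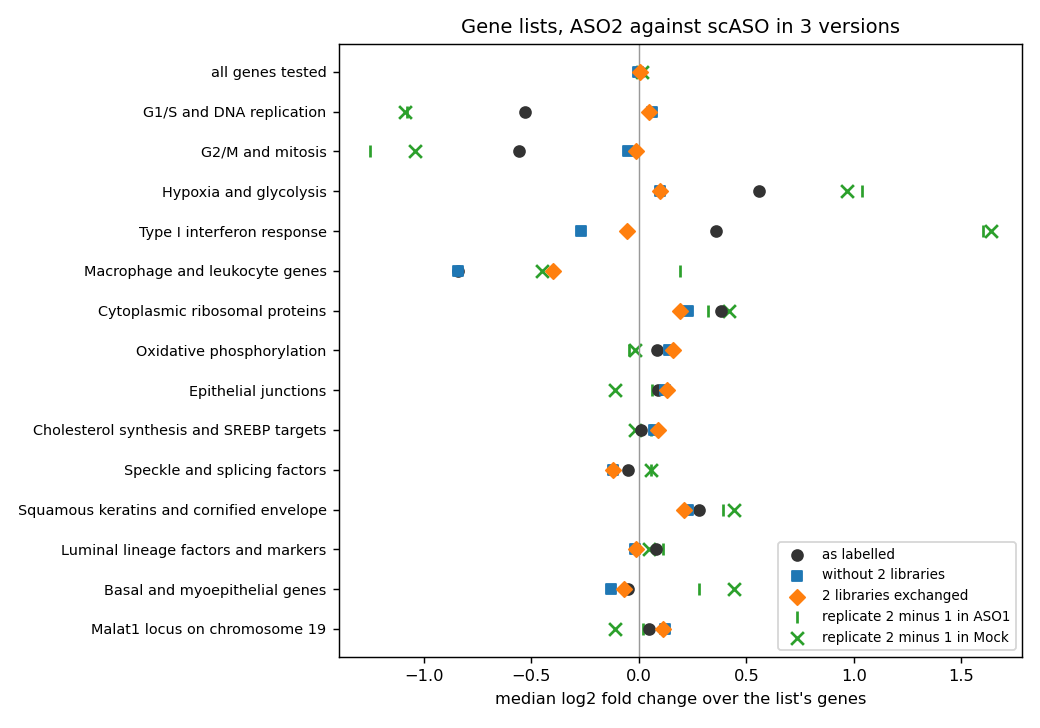
Median log2 fold change of ASO2 against scASO over the genes of each list, as labelled, without the 2 libraries and with them exchanged, with the difference between replicate 2 and replicate 1 within ASO1 and within Mock in green. The cell cycle, hypoxia and interferon lists lie at -0.53, -0.56, 0.56 and 0.36 as labelled, on the side of the green marks, while ribosomal protein genes keep a median above 0 in all 3 versions and macrophage genes a median below 0.

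Without the 2 libraries, 3 of 17325 genes (0.0173%) fell with ASO2 and none rose, with 1542 genes at an unadjusted p under 0.05. They were Malat1, by whose level the 2 libraries had been chosen, and Atg4c and Ptprc, to each of which edgeR gave an adjusted p of 0.0159. DESeq2 called 40 genes (0.231%), 17 higher and 23 lower, among them all 3 of these, and limma's voom called 11 (0.0635%). All 3 calls were lost in each of the 6 fits that left out 1 more library, while their fold changes lay between -2.69 and -2.12, -1.17 and -0.97, and -2.03 and -1.78. Without ASO2 replicate 3, 2 other genes passed, C1qa and the muscle myosin Myh8. No gene was called without the block, with 122 at an unadjusted p under 0.05.

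Atg4c (ENSMUSG00000028550, chromosome 4, 99193934 to 99259787, plus strand of GRCm38) codes for a cysteine protease that processes the LC3 family proteins of autophagy. The libraries labelled ASO2 held 16.2, 7.42, 10.4 and 8.84 CPM in replicates 1 to 4, and those labelled scASO held 17.4, 14.3, 21.9 and 16.2 CPM. As labelled, the groups overlapped through the library labelled ASO2 replicate 1, at 16.2 CPM, and the library labelled scASO replicate 2, at 14.3 CPM. In the other versions they did not overlap. The ASO1 libraries held 11.6, 12.7, 18.6 and 12 CPM and the Mock libraries 18.4, 17.1, 20 and 13.3 CPM. Atg4c had a log2 fold change of -0.72 ± 0.18 as labelled (adjusted p = 0.135), and it fell by 1.03 ± 0.13 on the log2 scale without the 2 libraries. With them exchanged, it fell by 0.81 ± 0.14 (adjusted p = 0.0489). Apart from Malat1, Atg4c was the gene that edgeR called in both of these versions.

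Ptprc codes for CD45, the surface phosphatase of leukocytes, and lay outside the level set for naming a called gene, so that it is named after its values were seen and as a member of the macrophage and leukocyte list. It held 0.51, 0.201, 0.983 and 0.75 CPM with ASO2 and 0.931, 0.746, 4.35 and 2.44 CPM with scASO. In each number the ASO2 library was the lower of the pair, and the groups overlapped in every version. The log2 fold change was -1.67 ± 0.24 as labelled (adjusted p = 0.0548), -1.92 ± 0.24 without the 2 libraries and -1.44 ± 0.29 with them exchanged (adjusted p = 0.0865).

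Of the 24 macrophage and leukocyte genes, 17 passed the filter on low counts. Of these, 3 were higher with ASO2 as labelled, 2 without the 2 libraries and 4 with them exchanged, with medians of -0.84, -0.84 and -0.40. In bulk RNA, fewer macrophages and less RNA per macrophage cannot be told apart. C1qa, a subunit of the complement component C1q that macrophages make, held 2.14, 0.86, 6.49 and 2.07 CPM with ASO2 and 4.63, 6.02, 12.3 and 7.35 CPM with scASO. It had a log2 fold change of -1.68 ± 0.29, -1.26 ± 0.19 and -0.80 ± 0.27 in the 3 versions (edgeR adjusted p = 0.0907, 0.083 and 0.17). Itgax, the integrin CD11c, held 0.612, 0.43, 2.02 and 2.2 CPM with ASO2 and 1.41, 1.67, 6.83 and 4.48 CPM with scASO, with log2 fold changes of -1.44 ± 0.23, -1.45 ± 0.25 and -0.81 ± 0.34. Each ASO2 library was thus below the scASO library of its number for C1qa and Itgax as labelled. DESeq2 called 8 of the 17 lower as labelled, 6 without the 2 libraries and 0 with them exchanged, beside 0.893%, 0.133% and 1.03% of all genes.

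The macrophage genes differed between versions in the pairs that the 2 libraries enter. The list median was -0.71 in the pair of replicate 3 and -0.77 in the pair of replicate 4. With the 2 libraries exchanged it was 0.51 in the pair of number 1 and -0.37 in that of number 2. Not every gene of the list was lower: Cd14, a coreceptor for bacterial lipopolysaccharide, held 394, 433, 122 and 155 CPM with ASO2 and 394, 360, 114 and 190 CPM with scASO. The log2 fold change came to 0.012 ± 0.10, -0.076 ± 0.11 and -0.053 ± 0.087. Cd68, a lysosomal protein of macrophages, held 25.7, 50.7, 10.9 and 43.6 CPM with ASO2 and 8, 12.9, 12.2 and 30.6 CPM with scASO, with log2 fold changes of 1.07 ± 0.39, 0.28 ± 0.32 and 0.54 ± 0.25 (adjusted p = 0.184, 0.802 and 0.276).

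**Figure D4:**
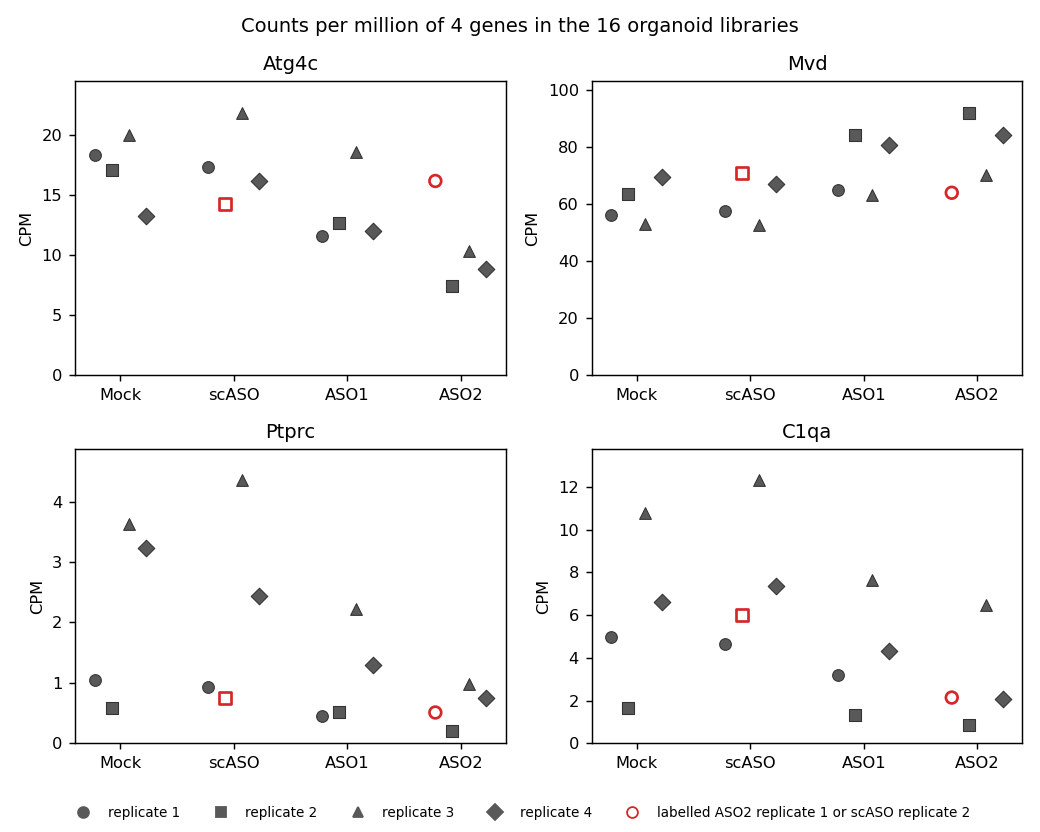
CPM of Atg4c, Mvd, Ptprc and C1qa in the 16 organoid libraries, with axes from 0, the replicate number as the marker shape and the 2 libraries whose Malat1 goes against their labels in open red. Atg4c lies between 7.42 and 10.4 CPM in ASO2 replicates 2 to 4 and between 16.2 and 21.9 CPM in scASO replicates 1, 3 and 4.

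With the 2 libraries exchanged, edgeR called 19 of 17126 genes (0.111%), 11 higher and 8 lower with ASO2, and 2995 genes had an unadjusted p under 0.05. DESeq2 called 566 (3.3%), 390 higher and 176 lower, and 16 of the 19 were among them. The rest of the 19, Ttn, Tchhl1 and Erbb4, were among 6309 genes to which DESeq2 gave no adjusted p in this version. limma's voom with quality weights called 2111 (12.3%). Leaving out 1 library gave 1 to 19 calls for 7 of the libraries and 33 calls without ASO2 replicate 4. Without the block there were 0, with 131 genes at an unadjusted p under 0.05. The 19 genes lie outside the rule for naming genes and were named after their values were seen.

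Among the 8 genes that fell were 3 that span long stretches of the genome. Gpc6, a glypican of the cell surface whose gene spans 1051 kb, held 130, 55.4, 65.9 and 40 CPM with ASO2 and 106, 77, 105 and 89 CPM with scASO. On the log2 scale it differed by -0.49 ± 0.26 as labelled, -1.01 ± 0.18 without the 2 libraries and -0.87 ± 0.15 with them exchanged (adjusted p = 0.3, 0.162 and 0.0462). Erbb4, a receptor for neuregulins that acts in alveolar development of the mammary gland and spans 1076 kb, held 2.14, 0.602, 2.92 and 0.175 CPM with ASO2 and 1.76, 0.92, 5.89 and 0.55 CPM with scASO. Its log2 fold change was -0.59 ± 0.34, -1.22 ± 0.29 and -1.23 ± 0.22 (adjusted p = 0.326, 0.377 and 0.0489). For both genes the ASO2 library was the lower in the pairs of replicates 2, 3 and 4, and the library labelled ASO2 replicate 1 was above the scASO library of its number.

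Ttn, which codes for the giant sarcomere protein titin and spans 279 kb, held 3.09, 1.63, 0.614 and 0.415 CPM with ASO2 and 6.64, 0.721, 2.03 and 1.45 CPM with scASO. It had a log2 fold change of -1.03 ± 0.51, -2.0 ± 0.33 and -1.96 ± 0.33 in the 3 versions. It belongs to the skeletal muscle list, of which 14 of 18 genes were tested: 5 were higher as labelled, 0 without the 2 libraries and 0 with them exchanged, with medians of -0.21, -0.78 and -0.76. The summed muscle list was highest in scASO replicate 1, at 57.3 CPM. There Myh3, the embryonic myosin heavy chain, held 13.6 CPM against 0.0249, 2.11 and 2.63 CPM in the scASO libraries of replicates 2, 3 and 4. The muscle marker Ckm did not exceed 0.229 CPM in the 8 libraries. Acta1, another muscle marker, held 9.03, 14, 5.68 and 8.69 CPM with ASO2 and 7.7, 2.14, 4.96 and 8.76 CPM with scASO. Whether muscle cells have a part in the value of Ttn was not tested.

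The other genes that fell were Malat1, Atg4c, Ttc14, Tspan2 and Tchhl1. Tspan2, a tetraspanin of the plasma membrane, held 77.2, 57.5, 72 and 51.4 CPM with ASO2 and 79.1, 61.9, 89.9 and 68.6 CPM with scASO. The log2 fold change came to -0.22 ± 0.083, -0.34 ± 0.088 and -0.38 ± 0.066. Ttc14 had log2 fold changes of -0.041 ± 0.14, -0.37 ± 0.084 and -0.43 ± 0.067. Tchhl1, a relative of the hair and epidermal protein trichohyalin, was read in replicate 4 alone among the 8 libraries, at 15.1 CPM with ASO2 and 43.1 CPM with scASO, so that its call rests on that pair.

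The genes that rose with the 2 libraries exchanged did so by 0.33 to 0.51 on the log2 scale. Ost4, a small subunit of the oligosaccharyltransferase that attaches N-glycans, held 26.5, 37.5, 31.7 and 23.7 CPM with ASO2 and 22.2, 27.3, 20.4 and 18.4 CPM with scASO, with log2 fold changes of 0.42 ± 0.082, 0.44 ± 0.10 and 0.44 ± 0.074 (adjusted p = 0.0907, 0.323 and 0.0462). Srprb, the membrane anchor of the signal recognition particle receptor, held 35, 43.3, 50.8 and 43.1 CPM with ASO2 and 26.8, 36, 36.3 and 37.8 CPM with scASO, with log2 fold changes of 0.33 ± 0.069, 0.36 ± 0.085 and 0.35 ± 0.062. For both genes the ASO2 library exceeded the scASO library of its number in all 4 pairs as labelled. Vps51, a subunit of the tethering complexes of endosomes, had log2 fold changes of 0.21 ± 0.081, 0.32 ± 0.083 and 0.36 ± 0.062, and Atp9a, a flippase of endosomal membranes, 0.14 ± 0.094, 0.31 ± 0.071 and 0.33 ± 0.057.

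Hyal2, a hyaluronidase at the cell surface, held 45.9, 59.8, 55.1 and 83.8 CPM with ASO2 and 46.3, 58.3, 44.5 and 67.4 CPM with scASO, with log2 fold changes of 0.16 ± 0.087, 0.32 ± 0.076 and 0.33 ± 0.056. Tspan1, a tetraspanin of epithelial cells, held 20.2, 30.4, 29 and 25.3 CPM with ASO2 and 7.62, 9.3, 20.6 and 20 CPM with scASO, with log2 fold changes of 0.97 ± 0.23, 0.44 ± 0.10 and 0.43 ± 0.074. Tspan1 also differed between number 2 and number 1 by 1.54 in ASO1 and 1.38 in Mock on the log2 scale. Gm10169, Gm13611 and Gm5422 are processed pseudogenes, with log2 fold changes of 0.51 ± 0.083, 0.51 ± 0.089 and 0.39 ± 0.064 with the 2 libraries exchanged, 0.53 ± 0.11, 0.60 ± 0.11 and 0.36 ± 0.086 without them, and 0.61 ± 0.094, 0.75 ± 0.11 and 0.17 ± 0.10 as labelled. Reads with several alignments were not counted, so the values of such copies and of their parent genes are uncertain.

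Mvd and Aacs make precursors of cholesterol and fatty acids. Mvd codes for mevalonate diphosphate decarboxylase, a step on the way from acetyl-CoA to cholesterol. It held 64, 92.1, 70.3 and 84.2 CPM with ASO2 and 57.7, 70.9, 52.7 and 66.9 CPM with scASO, in the order of the replicates. The ASO2 library was the higher in all 4 pairs as labelled and in all 4 with the 2 libraries exchanged. The ASO1 libraries held 64.9, 84.4, 63.1 and 80.9 CPM and the Mock libraries 56.2, 63.7, 53.1 and 69.6 CPM, and there too the ASO library of each number was the higher. The log2 fold change was 0.32 ± 0.066 as labelled (adjusted p = 0.0926), 0.37 ± 0.077 without the 2 libraries (adjusted p = 0.257) and 0.39 ± 0.057 with them exchanged (adjusted p = 0.0448). Aacs, a cytosolic enzyme that turns ketone bodies into acetoacetyl-CoA, held 99.4, 135, 159 and 176 CPM with ASO2 and 111, 151, 132 and 143 CPM with scASO. On the log2 scale it differed by 0.062 ± 0.11, 0.30 ± 0.081 and 0.36 ± 0.062 (adjusted p = 0.779, 0.422 and 0.0462).

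The genes of cholesterol synthesis are driven by the transcription factor SREBP2, which binds together with NF-Y, the factor of the CCAAT box. Of 27 such genes tested, 14 were higher with ASO2 as labelled (median 0.0097), 21 without the 2 libraries (median 0.069) and 23 with them exchanged (median 0.087). DESeq2 called 1, 1 and 6 of them higher, beside 2.23%, 0.0981% and 2.28% of all genes, and none lower. Fdps, which makes farnesyl diphosphate, held 132, 172, 209 and 185 CPM with ASO2 and 113, 147, 165 and 169 CPM with scASO, with log2 fold changes of 0.23 ± 0.075, 0.27 ± 0.091 and 0.31 ± 0.069. Mvk, mevalonate kinase, held 23.9, 28.9, 34.8 and 36.2 CPM with ASO2 and 31.7, 37.3, 26.3 and 29.6 CPM with scASO. Its log2 fold changes were -0.029 ± 0.16 as labelled and 0.32 ± 0.11 and 0.30 ± 0.084 in the other versions, so that the sign turned with the labels. Scd1, a fatty acid desaturase that SREBP also drives, had 0.065 ± 0.15, 0.047 ± 0.18 and 0.093 ± 0.14. None of Fdps, Mvk and Scd1 was called by edgeR.

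The promoters of Mvd and Mvk show the CCAAT box in this pathway. The 250 bases before the start of each gene, from RefSeq on GRCm38.p6, are given 5′ to 3′ on the strand of the gene. Capitals mark CCAAT and its reverse complement ATTGG, which were searched on both strands. Mvd lies on the minus strand at chr8:122443423-122443672 and Mvk on the plus strand at chr5:114444019-114444268.
Mvd: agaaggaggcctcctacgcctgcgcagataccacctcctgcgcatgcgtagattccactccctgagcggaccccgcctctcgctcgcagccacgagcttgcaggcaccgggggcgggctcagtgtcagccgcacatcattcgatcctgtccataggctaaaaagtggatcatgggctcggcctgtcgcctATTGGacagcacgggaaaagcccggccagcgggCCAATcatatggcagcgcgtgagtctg
Mvk: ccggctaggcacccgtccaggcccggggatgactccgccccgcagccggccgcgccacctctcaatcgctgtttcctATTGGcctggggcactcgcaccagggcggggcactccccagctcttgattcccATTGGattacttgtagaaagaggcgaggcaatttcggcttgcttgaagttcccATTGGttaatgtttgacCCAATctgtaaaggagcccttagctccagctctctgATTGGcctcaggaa
Mvd held 2 matches, at 60 and 27 bases before the start, and Mvk held 5. Of the list, 16 genes had a promoter in the RefSeq table, and 14 of these (87.5%) held at least 1 match in the 250 bases, against 10133 of 27025 genes (37.5%). A match is a description of the letters and not of a bound site.

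Ribosomal protein genes had a median above 0 in every version. Of 32 tested, 26 were higher with ASO2 as labelled (median 0.38), 28 without the 2 libraries (median 0.23) and 29 with them exchanged (median 0.19). None was called by edgeR, and DESeq2 called 15, 0 and 7 of them higher, beside 2.23%, 0.0981% and 2.28% of all genes. Rpl18, a protein of the large subunit, held 134, 180, 248 and 283 CPM with ASO2 and 93.5, 113, 166 and 218 CPM with scASO. The ASO2 library was the higher in all 4 pairs, with log2 fold changes of 0.54 ± 0.10, 0.48 ± 0.12 and 0.41 ± 0.092 (adjusted p = 0.0907, 0.378 and 0.11). Rps16, a protein of the small subunit, held 208, 337, 48.6 and 69.6 CPM with ASO2 and 151, 134, 24.7 and 39.6 CPM with scASO, with log2 fold changes of 0.87 ± 0.17, 0.69 ± 0.18 and 0.55 ± 0.15. Number 2 exceeded number 1 in this list by medians of 0.32 in ASO1 and 0.42 in Mock. Many ribosomal protein genes have near-identical pseudogenes, so these counts are uncertain in the same way as those of the Gm genes above.

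Genes of oxidative phosphorylation and of epithelial junctions had small positive medians. Of 25 genes of the respiratory chain and ATP synthase, 16, 19 and 17 were higher with ASO2 in the 3 versions, with medians of 0.086, 0.14 and 0.16. Cox4i1, a subunit of cytochrome c oxidase, held 197, 239, 307 and 261 CPM with ASO2 and 171, 214, 226 and 235 CPM with scASO, with log2 fold changes of 0.24 ± 0.078, 0.29 ± 0.091 and 0.30 ± 0.068 (adjusted p = 0.169, 0.451 and 0.11). Of 31 junction genes, 21, 22 and 24 were higher, with medians of 0.088, 0.12 and 0.13. Cldn3, a claudin of tight junctions, held 177, 273, 207 and 254 CPM with ASO2 and 196, 224, 130 and 173 CPM with scASO. It had a log2 fold change of 0.34 ± 0.16, 0.56 ± 0.17 and 0.51 ± 0.13 (adjusted p = 0.244, 0.442 and 0.112). Tjp3, a scaffold of tight junctions, had -0.21 ± 0.22, 0.32 ± 0.10 and 0.30 ± 0.073, with the sign turned by the labels. None of the genes of these lists was called by edgeR in any version, while DESeq2 called 1, 0 and 7 of the respiratory list and 0, 0 and 4 of the junction list higher in the 3 versions, beside 2.23%, 0.0981% and 2.28% of all genes.

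Speckle and splicing factors are the proteins beside which Malat1 resides. Of 32 such genes, 14 were higher as labelled (median -0.053), 4 without the 2 libraries (median -0.12) and 8 with them exchanged (median -0.12). The median was -0.13 in the pair of replicate 3 and -0.063 in the pair of replicate 4, and as labelled -0.067 and 0.0048 in those of replicates 1 and 2. Srsf1, a serine and arginine rich splicing factor, held 245, 204, 209 and 192 CPM with ASO2 and 277, 253, 243 and 222 CPM with scASO. The ASO2 library was the lower in all 4 pairs, with log2 fold changes of -0.23 ± 0.06, -0.22 ± 0.073 and -0.21 ± 0.053 (edgeR adjusted p = 0.141, 0.468 and 0.112). Srsf11, of the same family, held 207, 172, 176 and 185 CPM with ASO2 and 217, 181, 218 and 207 CPM with scASO, with log2 fold changes of -0.15 ± 0.067, -0.24 ± 0.072 and -0.25 ± 0.053. Luc7l2 and Luc7l3, which code for proteins of the U1 particle that marks the 5′ splice site, had 0.06 ± 0.17 and 0.055 ± 0.14 as labelled, -0.31 ± 0.11 and -0.26 ± 0.093 without the 2 libraries, and -0.34 ± 0.087 and -0.27 ± 0.068 with them exchanged. Srrm2, a scaffold protein of the speckle, had 0.086 ± 0.12, -0.068 ± 0.13 and -0.05 ± 0.10. edgeR called none of the 32. DESeq2 called 2, 0 and 9 of them lower, beside 0.893%, 0.133% and 1.03% of all genes, and 1, 0 and 0 higher.

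Markers of mammary lineages and of differentiation, which the series title mentions, had medians between -0.13 and 0.08 apart from squamous genes. Of 22 luminal genes, 14, 10 and 10 were higher with ASO2 (medians 0.08, -0.018 and -0.013). Of 22 basal and myoepithelial genes, 11, 7 and 8 were higher (medians -0.05, -0.13 and -0.07). Of the milk protein and milk fat genes, 13 of 24, 13 of 25 and 13 of 24 tested were higher (medians 0.027, 0.027 and 0.045). None of these genes was called by edgeR in any version. DESeq2 called 2, 0 and 0 luminal genes higher in the 3 versions, 2, 0 and 2 basal ones and 0, 0 and 1 of the milk list. It called 2.23%, 0.0981% and 2.28% of all genes higher, and none of these lists' genes lower. Krt8, a luminal keratin, held 1261, 1984, 1432 and 916 CPM with ASO2 and 870, 1056, 1191 and 849 CPM with scASO, so that the ASO2 library was the higher in each pair. The log2 fold change came to 0.47 ± 0.15, 0.36 ± 0.18 and 0.34 ± 0.13 (adjusted p = 0.169, 0.599 and 0.222). Krt14, the basal keratin, held 1165, 1702, 1325 and 3435 CPM with ASO2 and 1063, 1256, 1070 and 2559 CPM with scASO, with log2 fold changes of 0.33 ± 0.13, 0.44 ± 0.15 and 0.38 ± 0.11 (adjusted p = 0.2, 0.486 and 0.141). Esr1, the estrogen receptor, held 10, 8.08, 5.31 and 2.55 CPM with ASO2 and 5.86, 5.84, 7.19 and 3.38 CPM with scASO. On the log2 scale it differed by 0.12 ± 0.24, -0.44 ± 0.14 and -0.28 ± 0.12.

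Of 20 squamous keratin and cornified envelope genes, 17, 16 and 16 were higher with ASO2, with medians of 0.28, 0.23 and 0.21. The median differed between pairs, with -0.14 in replicate 3 and 0.38 in replicate 4. Krt6a, a keratin of stressed and squamous epithelium, held 139, 249, 299 and 1400 CPM with ASO2 and 123, 139, 231 and 916 CPM with scASO, with log2 fold changes of 0.51 ± 0.18, 0.56 ± 0.23 and 0.51 ± 0.17 (adjusted p = 0.184, 0.539 and 0.171). Replicate 4 stood far above the other replicates in both groups for these genes. Mesenchymal transition genes were higher in 12, 6 and 8 of 25 with medians of -0.0025, -0.21 and -0.077.

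ASO2 was also set against ASO1, which targets the same RNA at the same dose and time. edgeR called 0 genes as labelled (0%), 0 without the 2 libraries and 0 with them exchanged, with 342, 453 and 441 genes at an unadjusted p under 0.05. DESeq2 called 1 gene as labelled (0.00584%), Itgax, lower with ASO2 by a log2 difference of -1.28 in the edgeR fit. A call missing here does not show that the oligonucleotides act alike. Malat1 differed between ASO2 and ASO1 by 1.63 ± 0.68 on the log2 scale as labelled, and by 0.58 ± 0.27 and 0.39 ± 0.25 in the other versions. Atg4c was lower with ASO2 than with ASO1 by log2 differences of -0.38 ± 0.18, -0.63 ± 0.12 and -0.43 ± 0.14 (adjusted p = 1, 0.514 and 1). Mvd differed by 0.082 ± 0.066, 0.13 ± 0.068 and 0.12 ± 0.056, and Gpc6 by 0.039 ± 0.26, -0.29 ± 0.17 and -0.18 ± 0.15.

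Genes that differed between ASO1 and Mock, fitted in those 8 libraries alone, were then read in the ASO2 and scASO libraries. edgeR called 423 of 16193 genes there (2.61%), 329 higher and 94 lower with ASO1. Of the 329, 246 were higher with ASO2 than with scASO as labelled (74.8%), 196 without the 2 libraries (59.6%) and 255 with them exchanged (77.5%), beside 50.7%, 49.3% and 50.9% of all genes. Malat1 was among the 94 and was left out of the reading. Of the other 93, 43, 64 and 66 were lower (46.2%, 68.8% and 71%), beside 49.3%, 50.7% and 49.1% of all genes. The median of the 329 genes was 0.0099 in the pair of replicate 3 and -0.015 in the pair of replicate 4, and that of the 93 genes was 0.059 and -0.031. Mock had no named oligonucleotide, so that ASO1 against Mock also holds any response to an oligonucleotide as such.

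Differences between ASO2 and scASO also followed the length of the gene on the genome. Protein-coding genes were split into 10 classes of equal size by their span in GENCODE M21 on GRCm38, from a median of 2.85 kb in the shortest class to 201 kb in the longest. From the shortest to the longest, the median log2 fold change went from 0.086 to -0.12 as labelled, from 0.11 to -0.13 without the 2 libraries and from 0.11 to -0.12 with them exchanged. It went from 0.21 to -0.20 in the pair of replicate 3 and from 0.069 to -0.05 in the pair of replicate 4. A gradient of this size also appeared between libraries given the same oligonucleotide: number 2 minus number 1 in ASO1 went from 0.12 to -0.20, while in Mock both ends were at 0.015. Against ASO1, without the 2 libraries, the medians went from 0.019 to -0.028. Gene span and total exon length go together. By exon length alone, the median went from 0.10 to -0.10 as labelled, from the shortest to the longest of 10 classes. It went from 0.094 to -0.10 without the 2 libraries and from 0.10 to -0.093 with them exchanged. Genes were also split into 3 classes of exon length, and each of these into 3 classes of span. Without the 2 libraries, the median went from 0.11 in the short to 0.019 in the long spans among genes with the shortest exons, and from -0.019 to -0.12 among those with the longest exons. Median exon length still rose with span there, from 1.73 to 2.5 kb and from 7.07 to 9.78 kb, so the split did not hold it fixed. The part of RNA quality or library preparation in these gradients was not tested. The long genes Gpc6, Erbb4 and Ttn and the short genes Mvd (9.82 kb), Ost4 (1.9 kb) and Hyal2 (4.83 kb) were called on the side to which the gradient of their span leads. So were Atg4c (65.9 kb), Ptprc (113 kb) and Tspan2 (67 kb), which fell, and Tspan1 (5.73 kb), Vps51 (9.39 kb) and Srprb (14.1 kb), which rose. Against the gradient, Atp9a (108 kb) and Aacs (41.6 kb) rose and Tchhl1 (3.23 kb) and Ttc14 (15 kb) fell.

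**Figure D5:**
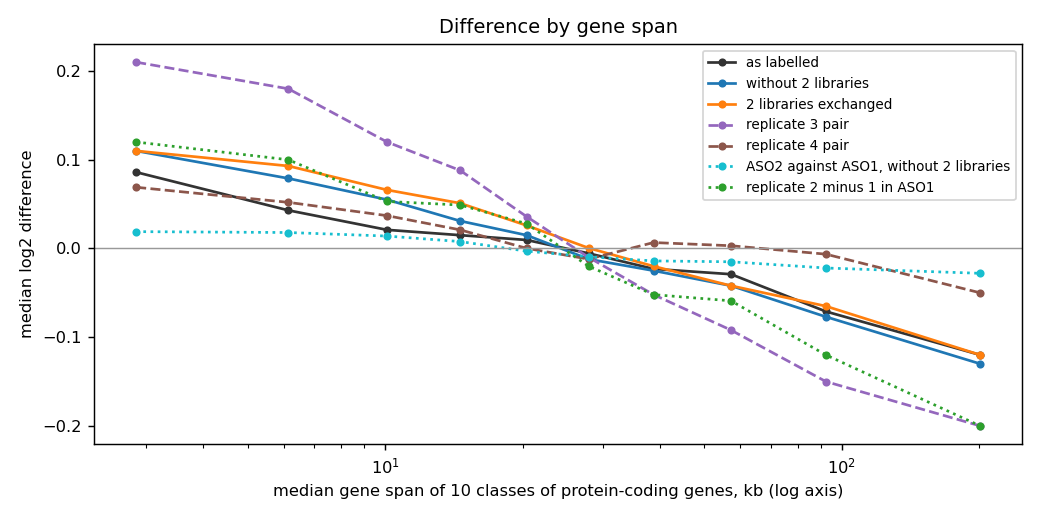
Median log2 difference of protein-coding genes in 10 classes of gene span (log axis, kb) for ASO2 against scASO in the 3 versions, for the pairs of replicates 3 and 4 alone, for ASO2 against ASO1 without the 2 libraries, and for replicate 2 minus replicate 1 within ASO1. The 3 versions fall from 0.086, 0.11 and 0.11 in the shortest class to -0.12, -0.13 and -0.12 in the longest.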

How the data were processed

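Polyadenylated RNA was sequenced from TruSeq libraries, per the labels' protocols. The authors deposited 1 table of raw read counts for each library. Per the submitters' processing notes, the tools were CASAVA, FastQC, STAR, HTSeq and DESeq2, and the build was mm9, with versions, annotation and strand use not given in the sources used here. Of the 37310 genes in each table, 32620 matched GENCODE M21 by ID. A further 5 lines count unassigned reads and entered neither the depths nor any test: against the reads in genes, in the 8 libraries, reads in no feature came to 8.34 to 14.6%, ambiguous ones to 4.53 to 8.7% and those with several alignments to 21.2 to 28.4%. Locations are those of GRCm38.

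The 16 organoid libraries were fitted with edgeR 4.0.16 in R 4.3.3 (TMM normalization, filterByExpr with minimum counts of 10 per library and 15 in total, quasi-likelihood F-test, the replicate number as a block), so that ASO1 and Mock share the estimate of the spread. Benjamini-Hochberg adjustment ran over all genes tested, and a gene was called at an adjusted p under 0.05. Log2 fold changes carry the standard error. Pair differences used log2 CPM with a prior count of 2. DESeq2 1.42.0 and limma 3.58.1 served as alternatives, along with other filters, size factors, fits to the 8 libraries alone, fits without the block and fits that left out each library in turn. The edgeR fit was tested on simulated counts. Single levels were compared with exact permutation tests.

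The labels give each group the numbers 1 to 4 but do not say what they share. From the deviations from group means, ASO2 and scASO libraries with the same number correlated at 0.662, 0.61, 0.764 and 0.886, so the numbers were taken to pair the libraries. These correlations barely separate numbers 1 and 2. ASO2 replicate 1 correlated with scASO replicate 2 at 0.583, and ASO2 replicate 2 with scASO replicate 1 at 0.558. The pairing within numbers 1 and 2 as labelled therefore rests on the labels. No libraries of a group were alike within counting noise; the lowest chi-square per degree of freedom was 15.

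The libraries, gene lists (35 lists, 851 genes, 843 matched) and tests were chosen with earlier results of these data known. Genes were named by a rule: Malat1 and Neat1, called genes whose mean log2 CPM reached 1 (up to 12 per direction without the 2 libraries and up to 4 as labelled), and, for a list, its most abundant member and up to 4 more by smallest p. Lists are described by counts and medians, without a test. Exceptions are named as such, and Car9, Myh8 and the genes called by edgeR with the 2 libraries exchanged were chosen after their values were seen where the rule does not name them. The sequences of the oligonucleotides were not used here. Some genes that the rule picks are left out of the text.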

Additional observations from a re-analysis of the deposited data

Results flagged for a closer look

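Malat1, Neat1, the genes called by edgeR in the second or the third version and the summed lists were checked in ASO2 and in scASO as labelled. Other genes named above were not checked. Of these 112 groups of 4 libraries, 11 held a library far from the others. Its gap to the nearest of them took up more of the range of the group than Dixon's limit allows. Chance alone does this in about 1 of 20 groups. No explanation was tested for any of them.

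Replicate 4 stood apart most often. With ASO2, the squamous genes summed to 8909 CPM in replicate 4 against 466, 722 and 770 CPM, the p53 targets to 4458 CPM against 2143, 2249 and 2371 CPM, and the Wnt pathway genes to 2287 CPM against 1600, 1687 and 1690 CPM. Tchhl1 held 15.1 CPM in ASO2 replicate 4 and 43.1 CPM in scASO replicate 4, and 0 in the other libraries of both groups. The adipocyte genes summed to 180 CPM in scASO replicate 4 against 92.1, 94.1 and 96 CPM.

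Replicate 3 stood apart in 3 lists. Genes of the unfolded protein and integrated stress response summed to 7312 CPM in ASO2 replicate 3 against 5501, 5516 and 5565 CPM. In scASO replicate 3 the Notch pathway genes summed to 1437 CPM against 1737, 1743 and 1779 CPM, and the endothelial genes to 49.4 CPM against 117, 119 and 123 CPM.

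In scASO replicate 1, the pseudogene Gm5422 held 20.5 CPM against 29.3, 29.9 and 31.2 CPM. Srprb held 26.8 CPM there against 36, 36.3 and 37.8 CPM.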

How the results depend on the processing

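As labelled, edgeR called 0 genes; DESeq2 called 535, limma's voom 11, edgeR with no filter on low counts 11, and leaving out 1 library gave 0 to 284. The other versions gave 3 genes without the 2 libraries and 19 with them exchanged. Without the 2 libraries, the fit to the ASO2 and scASO libraries alone called 39, DESeq2 40, voom 11, no filter 18, and leaving out 1 more library 0 to 2. With them exchanged, the same settings called 184, 566, 2111, 41 and 1 to 33. Without the replicate block edgeR called 0 genes in each version. Libraries of the same number resemble each other, and a fit without the block keeps the differences between numbers in its spread. DESeq2 size factors, and a filter of at least 1 CPM in 4 libraries, kept the counts at 0, 3 and 19. For ASO2 against ASO1, DESeq2 called 1 gene in place of 0. The cause of these differences was not tested.

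The Malat1 difference as labelled was -1.58 to -0.26 when 1 library was left out, and that of Neat1 -0.30 to 0.083, with the sign turned without ASO2 replicate 1 (0.083) and without scASO replicate 4 (0.023). The fold change of Neat1 was 0.21 without the 2 libraries and -0.087 as labelled. Tchhl1 with the 2 libraries exchanged was -1.97 to 0.95 when 1 library was left out, and 0.95 without scASO replicate 4. Over the called genes and Neat1, 172 of the alternative values kept sign and side of the threshold, 208 kept the sign but lost the call and 2 turned. Genes at low levels, such as Ptprc and Erbb4, rest on few reads in the libraries with the smallest depth.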
